A study of Arabidopsis thaliana with 6 samples.

Results

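The glucosinolate genes of Arabidopsis thaliana were followed as a set of 42 genes, listed by locus: the MYB regulators of the pathway, the enzymes of methionine chain elongation, core synthesis and side-chain modification, and 4 genes of breakdown. The members were listed by their function in the pathway, with earlier results of these data known. Of the 42 genes, 39 had an entry in the deposited table of 21693 genes and 36 had enough counts to be tested. RNA-seq of whole shoots, taken from seedlings aged 8 days, gave 3 wild-type (WT) libraries and 3 libraries from the phod1 mutant. Both genotypes grew at 23 °C under 16 h light and 8 h dark, on 1/2 MS agar with 1.0% sucrose and 1.1% agar, and neither carried another allele or treatment named in the labels. The labels give neither the gene that phod1 affects nor the ecotype, so no library was checked against a targeted gene. Nothing in the labels says that the 3 libraries of a genotype came from separate cultures, so each p-value here reflects sample-to-sample spread alone, some or all of it possibly technical.

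Glucosinolates are sulfur-rich defence compounds of the cabbage family, made from methionine (the aliphatic kind) or tryptophan (the indolic kind) and stored away from the myrosinases that break them down when tissue is damaged. MYB28, MYB29 and MYB76 switch on the aliphatic branch, and MYB34, MYB51 and MYB122 the indolic branch. Methionine is first lengthened in the chloroplast, then cytochromes P450 of the CYP79 and CYP83 families, a carbon-sulfur lyase, a glucosyltransferase and sulfotransferases build the core, and oxygenases decorate the side chain.

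Estimated counts summed to between 33183463 and 54720319 units per library, in which 1 fragment was worth about 4 units, so that a floor of 3 fragments stood at 0.256 to 0.404 counts per 1e6 (CPM, scaled by TMM); floors cover counting error only. The tissue was checked with marker genes. The summed CPM of the 6 green-tissue markers in the table lay between 55896 and 67350 in WT and between 29461 and 37045 in phod1. By the test described below, 4 of the 6 fell (66.7%, beside 13% of all genes) and none rose. Of 9 root markers PYK10 alone reached 1 CPM, at 213, 236 and 209.6 CPM in WT and 229, 277 and 229 CPM in phod1. The other 8 summed to 0.535 to 1.73 CPM in any library, and EXPA7 and RSL4 were listed at 0. In bulk samples, fewer cells of a type and less RNA per cell cannot be told apart, and the part of the lower green-tissue markers in the results below was not tested.

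In phod1 8 members rose and 1 fell, as called by the quasi-likelihood test of edgeR at 0.05 after Benjamini-Hochberg adjustment across the table. The 8 that rose were the chain-elongation genes MAM3, IPMI1 and IMD1, the core genes SOT17, CYP83B1 and GGP1, the indolic side-chain gene CYP81F4 and the specifier ESP, and the 1 that fell was the regulator MYB76. The 9 called members were 25% of the 36 tested, beside 27.7% of all 10803 genes tested. By direction, 22.2% of members rose, beside 14.6% of all genes, and 2.78% fell, beside 13%. With this fit the share called in either direction is thus near the background and is not a result about the members. The median log2 fold change was 0.17 over the members and 0.01 over all genes. Values of the 2 genotypes did not overlap and were higher in phod1 for 14 members (38.9%, beside 24.7% of all genes), and lower for 5 members (13.9%, beside 22.9%). With library totals as the scale 18 of the 36 members rose and 1 fell, beside 3544 and 618 of all 10803 genes. Of all calls on that scale 85.2% were higher, beside 52.9% with TMM. The DESeq2 Wald test, an alternative to the edgeR fit, called 12 members higher and 2 lower, beside 1982 and 1904 of 13806 genes. The share of members called thus depended on the fit.

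**Figure D1:**
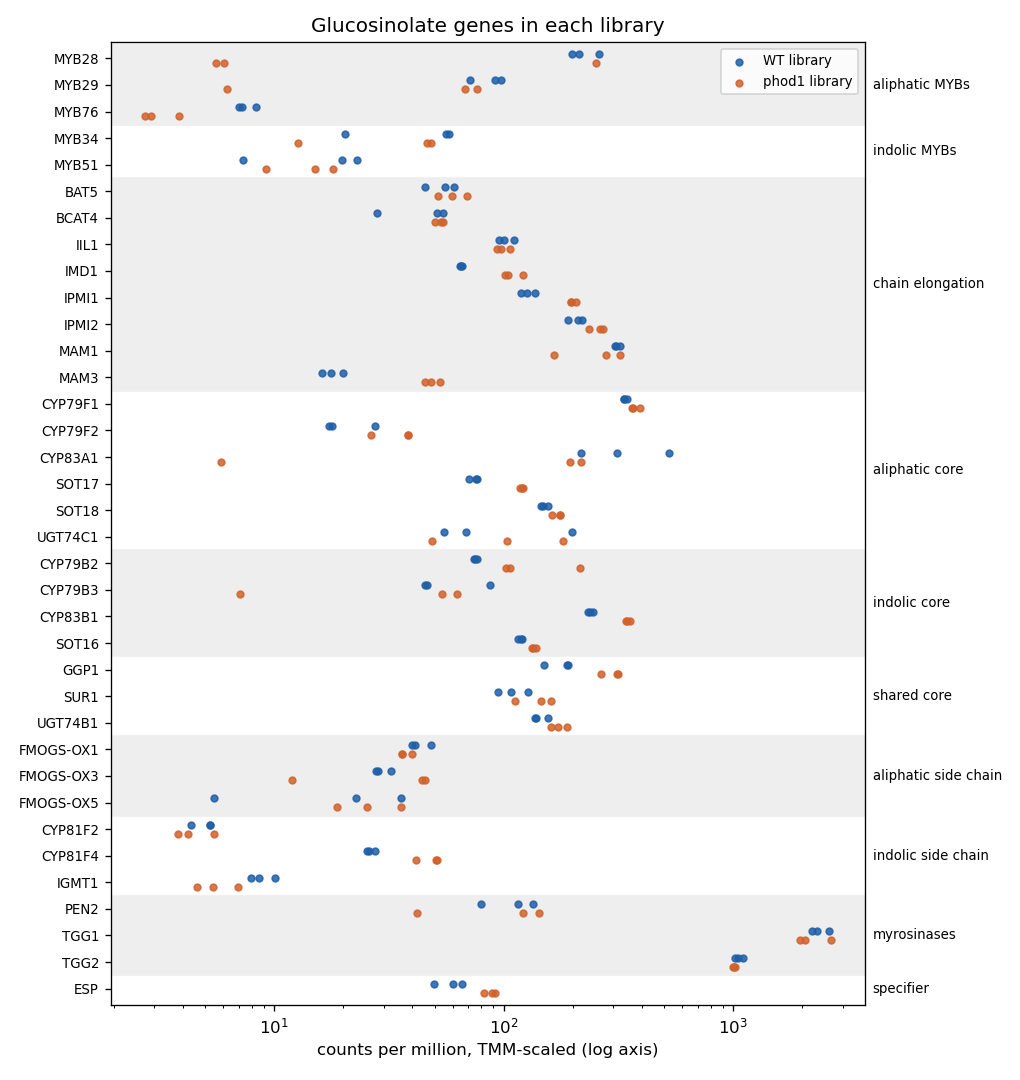
Level of each of the 36 tested members in each library, in TMM-scaled CPM on a log axis, with WT in blue, phod1 in orange and the genes grouped by role. The 3 phod1 values of MAM3, IPMI1, IMD1, SOT17, CYP83B1, GGP1, CYP81F4 and ESP all lie above the WT values, while single phod1 libraries of MYB28, MYB29, CYP83A1 and CYP79B3 lie far from the others.

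Levels per length placed the myrosinases TGG1 and TGG2 far above every other member. TGG1 stood at a mean of 1260 CPM per kb in WT and 1170 in phod1, and TGG2 at 538 and 511. Next in WT came CYP83A1 at 184, IPMI2 at 173, MAM1 at 152, GGP1 at 146, CYP83B1 at 126 and MYB28 at 113 CPM per kb. In phod1, GGP1 at 244 and IPMI2 at 214 CPM per kb came after TGG1 and TGG2, followed by CYP83B1 at 183, while the means of CYP83A1 (72.6) and MYB28 (44.6) rest on libraries that differ many-fold. At the other end of the tested members were MYB76, at 4.89 and 2.06, and CYP81F2, at 2.79 and 2.54 CPM per kb in WT and phod1.

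Among the aliphatic regulators, MYB76 fell, and MYB28 and MYB29 did not pass, each with phod1 libraries that differed many-fold. MYB76 (AT5G07700), which acts with MYB28 and MYB29 on aliphatic synthesis, was at 8.28, 7.23 and 6.99 CPM in WT and 3.84, 2.73 and 2.91 CPM in phod1. All 3 phod1 libraries were below all 3 WT libraries, and the log2 fold change was −1.25 (SE 0.185, edgeR adjusted p = 0.00588). It stayed past the threshold when any 1 library was left out, with a log2 fold change between −1.41 and −1.15.

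MYB28 (AT5G61420), the main regulator of the aliphatic branch, was at 198, 214 and 259 CPM in WT and at 6.06, 253 and 5.56 CPM in phod1. Libraries phod1 1 and phod1 3 were thus far below WT, and phod1 2 was inside the WT range. The log2 fold change was −1.34 (SE 1.48, edgeR adjusted p = 0.563), and without phod1 2 it was −5.26 with an adjusted p of 0.00104. Without phod1 1 or phod1 3 it was −0.79 each time, with an adjusted p of 0.739. The log2 ratio of the genotype medians, chosen after the values were seen, was −5.12. The genes next to MYB28 did not show that split among phod1 libraries: RPE held 4302, 5352 and 5397 units and NAC100 held 125, 110 and 108 units in phod1 1 to 3.

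MYB29 (AT5G07690), whose gene lies beside that of MYB76 on chromosome 5, was at 71.0, 91.6 and 96.9 CPM in WT and at 6.24, 76.6 and 67.9 CPM in phod1. The far library was phod1 1, phod1 2 lay inside the WT range and phod1 3 just below it, with a log2 fold change of −0.78 (SE 0.821, edgeR adjusted p = 0.542). Without phod1 1 it was −0.26, at an adjusted p of 0.353. The low libraries of MYB28 were phod1 1 and phod1 3, so that the summed level of the 3 aliphatic regulators lay between 277 and 363 CPM in WT and was 16.1, 332 and 76.4 CPM in phod1 1 to 3.

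None of the indolic regulators passed the test. MYB34 (AT5G60890), a regulator of indolic synthesis, was at 20.4, 57.6 and 55.9 CPM in WT and 46.2, 48.4 and 12.7 CPM in phod1, with 1 low library in each genotype (log2 fold change −0.32, edgeR adjusted p = 0.756). MYB51, a second regulator of that branch, was at 22.9, 7.28 and 19.8 CPM in WT and 9.22, 15.1 and 18.0 CPM in phod1 (log2 fold change −0.24, edgeR adjusted p = 0.763). The ranges overlapped for both genes, and both signs turned when libraries were scaled by their totals, to 0.07 and 0.13, a scaling that moved the median of all genes to 0.39. They also turned without 1 library, to 0.084 for MYB34 without phod1 3 and to 0.067 for MYB51 without WT 1. MYB122 held 4 units in WT 1 and 3 units in phod1 1 and was at 0 in the other 4 libraries, at or under the floor, and was not tested.

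Of the 8 chain-elongation genes, 3 rose (37.5%, beside 14.6% of all genes), none fell (beside 13%) and 5 did not pass. MAM3 (AT5G23020), a methylthioalkylmalate synthase that adds carbon to methionine-derived acids and can make the longest chains, showed the largest rise of any called member. It was at 16.2, 20.0 and 17.7 CPM in WT and 48.3, 52.9 and 45.4 CPM in phod1. Every phod1 value was above every WT value, and the log2 fold change was 1.45 (SE 0.122, edgeR adjusted p = 0.000903), or 2.72-fold.

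MAM1 (AT5G23010), its neighbour on chromosome 5 that works on shorter chains, was at 309, 306 and 322 CPM in WT and at 322, 166 and 278 CPM in phod1. The ranges overlapped, and the log2 fold change of −0.29 (edgeR adjusted p = 0.434) turned to 0.08 with library totals as the scale. The ratio of MAM3 to MAM1 counts per kb was 0.0586, 0.073 and 0.0616 in WT and 0.168, 0.359 and 0.183 in phod1, higher in all 3 phod1 libraries. This ratio was chosen after its values were seen, so no test is given, and reads of such close relatives may be divided between them by the authors' counting.

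IPMI1 (AT3G58990), a small subunit of the isomerase of the elongation cycle, was at 119, 126 and 137 CPM in WT and 207, 196 and 197 CPM in phod1. It rose by 0.65 on the log2 scale (SE 0.0809, edgeR adjusted p = 0.00329). IMD1 (AT5G14200), the dehydrogenase of the cycle, was at 65.7, 65.0 and 64.3 CPM in WT and 101, 105 and 121 CPM in phod1, and rose by 0.74 (SE 0.0948, edgeR adjusted p = 0.00352). The genotypes did not overlap for either gene.

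IPMI2, the other small subunit, was also higher in every phod1 library, at 235 to 270 CPM (235, 263 and 269.6) beside 191 to 219.6 CPM in WT, but did not pass (log2 fold change 0.31, edgeR adjusted p = 0.0595). It passed with a stricter filter on low values, at an adjusted p of 0.043, and by the DESeq2 Wald test, at an adjusted p of 0.0396. The large subunit IIL1 had a log2 fold change of −0.04 (edgeR adjusted p = 0.781), which was 0.34 with library totals as the scale, at an adjusted p of 0.0429. BCAT4, the aminotransferase that starts elongation, had one of 0.24 and BAT5, the chloroplast carrier of the 2-oxo acids, one of 0.15, with edgeR adjusted p-values of 0.549 and 0.543. Without WT 3 the value of BCAT4 was −0.003, and without WT 1 that of IIL1 was 0.019. The summed level of the 8 genes lay between 911 and 944 CPM in WT and between 971 and 1152 CPM in phod1.

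In the aliphatic core, SOT17 rose and the other tested genes did not pass. SOT17 (AT1G18590), 1 of 3 sulfotransferases that complete the core, was at 70.7, 76.7 and 75.8 CPM in WT and 119.9, 122 and 117 CPM in phod1. The genotypes did not overlap, and it rose by 0.69 on the log2 scale (SE 0.0733, edgeR adjusted p = 0.00199). The other aliphatic-type sulfotransferase, SOT18, was at 149, 156 and 145 CPM in WT and 175, 162 and 175 CPM in phod1, higher in all phod1 libraries, with a log2 fold change of 0.19 (edgeR adjusted p = 0.115).

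CYP79F1 (AT1G16410), which converts chain-lengthened methionine to aldoximes, was at 335, 346 and 335 CPM in WT and 362, 367 and 394 CPM in phod1 (log2 fold change 0.14, edgeR adjusted p = 0.173). CYP79F2 (AT1G16400), its neighbour on chromosome 1 that acts on long chains, was at 17.8, 17.4 and 27.4 CPM in WT and 38.3, 38.3 and 26.5 CPM in phod1. Its log2 fold change was 0.72 (SE 0.245, edgeR adjusted p = 0.0817), with WT 3 above phod1 3, and without WT 3 it was 0.97 with an adjusted p of 0.0359. CYP79F2 also passed the DESeq2 Wald test on all libraries, at an adjusted p of 0.0402.

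CYP83A1 (AT4G13770), which oxidises the aliphatic aldoximes, was at 524, 218 and 312 CPM in WT and at 5.85, 194 and 216 CPM in phod1. All phod1 values were below all WT values, but phod1 1 was far below the other phod1 libraries, and the log2 fold change of −1.34 (SE 1.13) did not pass, with an edgeR adjusted p of 0.444. Without phod1 1 it was −0.78, at an adjusted p of 0.242. UGT74C1, a glucosyltransferase, varied within both genotypes, at 54.97, 199 and 68.3 CPM in WT and 48.6, 182 and 104 CPM in phod1 (log2 fold change 0.05, edgeR adjusted p = 0.968). Leaving out 1 library moved that value between −0.498 (without phod1 2) and 0.861 (without WT 2), and it was also negative without WT 1 or WT 3. The glutathione transferase gene GSTF11 was listed at 0 in every library. In the reference annotation its model overlaps that of NAC045, which held 1002, 1441 and 856 units in WT and 1200, 1461 and 1390 units in phod1.

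Among the indolic core genes, CYP83B1 rose and 3 did not pass. CYP83B1 (AT4G31500), the counterpart of CYP83A1 for the tryptophan-derived aldoxime, was at 234, 238 and 245 CPM in WT and 357, 341 and 346 CPM in phod1. The genotypes did not overlap, and it rose by 0.54 on the log2 scale (SE 0.0621, edgeR adjusted p = 0.00251), or 1.46-fold.

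CYP79B2 (AT4G39950), which makes that aldoxime from tryptophan, was at 74.0, 75.1 and 76.6 CPM in WT and at 215, 106 and 103 CPM in phod1. All phod1 libraries were above WT, with phod1 1 far above the others, and the log2 fold change was 0.91 (SE 0.306, edgeR adjusted p = 0.0793). Without phod1 1 it was smaller, at 0.47, and passed at an adjusted p of 0.025. On all libraries CYP79B2 passed the DESeq2 Wald test, at an adjusted p of 0.029. Its close relative CYP79B3 was at 45.2, 87.3 and 46.2 CPM in WT and at 7.05, 62.9 and 54.0 CPM in phod1, so that the library highest for CYP79B2 was lowest for CYP79B3 (log2 fold change −0.53, edgeR adjusted p = 0.672). That direction rested on phod1 1: without it the value was −0.03, and the log2 ratio of the genotype medians was 0.23. SOT16, the sulfotransferase with a preference for indolic cores, was at 116, 119.6 and 119 CPM in WT and 133, 139 and 134 CPM in phod1, without overlap, and did not pass (log2 fold change 0.19, edgeR adjusted p = 0.081). With a stricter filter SOT16 passed, at an adjusted p of 0.0436, and by the DESeq2 Wald test it passed at an adjusted p of 0.015.

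Of the 3 core enzymes that serve both branches, GGP1 rose. GGP1 (AT4G30530), which trims the glutathione conjugate, was at 189, 150.5 and 191 CPM in WT and 310.3, 265 and 314 CPM in phod1, with no overlap. It rose by 0.74 on the log2 scale (SE 0.128, edgeR adjusted p = 0.00986). The carbon-sulfur lyase SUR1 had a log2 fold change of 0.34 with overlapping ranges (edgeR adjusted p = 0.215), and the glucosyltransferase UGT74B1 one of 0.28 without overlap (edgeR adjusted p = 0.0824).

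**Figure D2:**
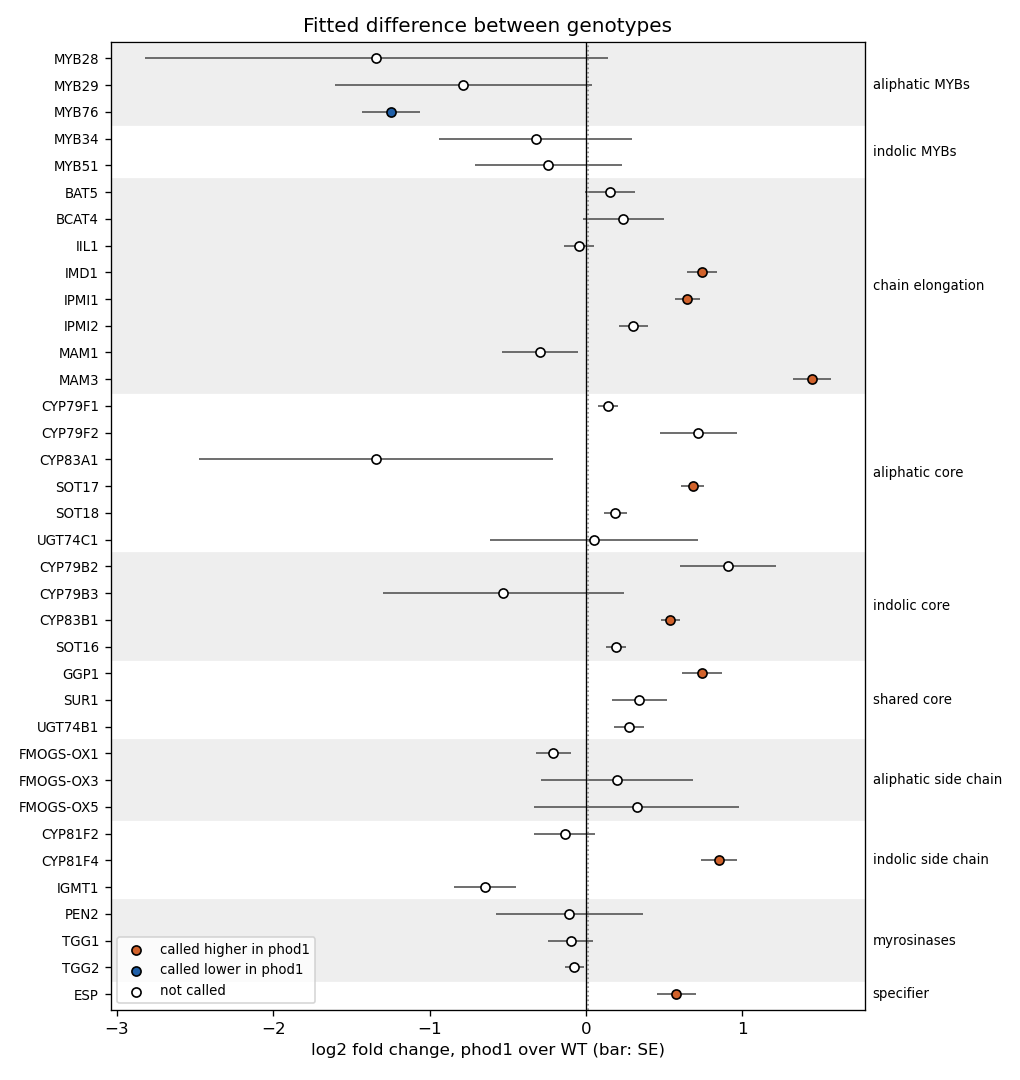
Log2 fold change of phod1 over WT for the 36 tested members from the edgeR fit, with bars of 1 SE, a solid line at 0 and a dotted line at the median of all genes tested (0.01). Filled points are the 8 members called higher and the 1 called lower, and the long bars of MYB28 (SE 1.48) and CYP83A1 (SE 1.13) come with libraries of 1 genotype that differ many-fold.

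No aliphatic side-chain gene passed. The 3 tested ones are S-oxygenases that oxidise the sulfur of the side chain. FMOGS-OX1 was lower in every phod1 library, at 36.0, 39.94 and 36.1 CPM beside 48.4, 39.97 and 41.2 CPM in WT. WT 2 and phod1 2 were nearly equal, and its log2 fold change of −0.21 (edgeR adjusted p = 0.229) turned to 0.17 with library totals as the scale. FMOGS-OX3 was at 32.1, 28.4 and 27.8 CPM in WT and 11.99, 44.1 and 45.4 CPM in phod1. With phod1 1 low, its log2 fold change was 0.20 (edgeR adjusted p = 0.81), and without phod1 1 it was 0.60 with an adjusted p of 0.0294. It was −0.037 without phod1 2 and −0.071 without phod1 3. FMOGS-OX5 had overlapping ranges, with WT 2 low at 5.44 CPM (log2 fold change 0.33, edgeR adjusted p = 0.767, and −0.128 without WT 2). AOP3, a dioxygenase of the side chain, was listed at 0 in every library, and FMOGS-OX2 and AOP2 had no entry and were not analysed here.

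In the indolic side chain CYP81F4 rose. This P450 (AT4G37410), which hydroxylates the nitrogen of the indole ring, was at 25.4, 27.6 and 25.9 CPM in WT and 50.9, 41.3 and 50.5 CPM in phod1. Every phod1 value was above every WT value, and the rise was 0.85 on the log2 scale (SE 0.116, edgeR adjusted p = 0.00443). CYP81F2, which acts on a carbon of the ring, was between 4.34 and 5.25 CPM in WT and between 3.79 and 5.49 CPM in phod1 (log2 fold change −0.14, edgeR adjusted p = 0.666), and with library totals as the scale its log2 fold change was 0.24. IGMT1, a methyltransferase for the product of CYP81F2, was at 10.06, 7.92 and 8.60 CPM in WT and 4.62, 6.93 and 5.43 CPM in phod1. It was lower in every phod1 library but did not pass (log2 fold change −0.65, SE 0.198, edgeR adjusted p = 0.0606), and without phod1 2 it passed, at −0.82 and an adjusted p of 0.0427. By the DESeq2 Wald test on all libraries IGMT1 passed, at an adjusted p of 0.0187. IGMT2 had no entry and was not analysed here, and IGMT1 has near-identical relatives that may share its reads.

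Among the breakdown genes the 3 myrosinases did not pass and ESP rose. TGG1 (AT5G26000), the myrosinase with the highest level per length, was at 2216, 2310 and 2609 CPM in WT and 2048, 2665 and 1959 CPM in phod1, with overlap (log2 fold change −0.10, edgeR adjusted p = 0.673). TGG2 (AT5G25980), the second classical myrosinase, was at 1019.7, 1055 and 1103 CPM in WT and 1007, 1016 and 996 CPM in phod1. TGG2 values were lower in every phod1 library, by little, with a log2 fold change of −0.07 (edgeR adjusted p = 0.434). Both signs depend on the scale: with library totals TGG1 was at 0.28 and TGG2 at 0.31, the latter with an adjusted p of 0.0242. PEN2, an atypical myrosinase of indolic glucosinolates in pathogen defence, was at 115, 134 and 79.8 CPM in WT and 41.8, 122 and 143 CPM in phod1. Its log2 fold change of −0.11 (edgeR adjusted p = 0.901) was 0.27 without phod1 1, 0.07 without WT 2 and 0.28 with library totals as the scale, and the log2 ratio of the medians was 0.08.

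ESP (AT1G54040), which diverts breakdown from isothiocyanates towards nitriles, was at 65.5, 60.2 and 49.7 CPM in WT and 91.6, 81.8 and 88.5 CPM in phod1. The genotypes did not overlap, and it rose by 0.58 on the log2 scale (SE 0.126, edgeR adjusted p = 0.0206). ESP was the 1 called member that depended on single libraries: its adjusted p was 0.0536 without WT 2, 0.0687 without phod1 1 and 0.0627 without phod1 3. The other 8 called members kept their call in all 12 alternative fits, with a highest adjusted p of 0.0405, for CYP81F4.

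Aliphatic and indolic genes were then compared. Of 20 tested aliphatic members 4 rose (20%) and 1 fell (5%), and of 9 tested indolic members 2 rose (22.2%) and none fell, beside 14.6% and 13% of all genes. In either direction the edgeR fit called 25% of the aliphatic and 22.2% of the indolic members, near the 27.7% of all genes. The median log2 fold change was 0.17 for the aliphatic and −0.14 for the indolic members, but with ratios of medians in place of the fit the 2 values were 0.15 and 0.17, so the order of the lists depended on the summary used. Counted by step, the 31 tested enzymes and breakdown genes held 8 that rose and none that fell, and the 5 tested regulators held 1 that fell and none that rose, where 14.6% of all genes rose and 13% fell. With SOT16, SOT17, SOT18, UGT74C1 and GSTF11 counted as shared, 3 aliphatic members rose and 1 fell, and 2 indolic members rose and none fell. These counts are descriptions, and no test of a difference between the lists was made.

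At 4 matched steps the aliphatic gene was set against the indolic gene within each library, which does not depend on the scaling. With 3 libraries against 3, the exact two-sided permutation test cannot go below p = 0.1. For CYP79F1 over CYP79B2 the log2 ratio of counts was 2.18, 2.20 and 2.13 in WT and 0.75, 1.79 and 1.94 in phod1, lower in every phod1 library by a mean of 0.68 (exact permutation p = 0.1, 0.2 after adjustment over the 4 pairs). Without phod1 1 the difference was −0.31. CYP79B3, the other CYP79 of the indolic branch, was not used in a pair. In phod1 1 it was low, at 270 units, where CYP79B2 held 8216 units, so this result holds for CYP79B2 only. For CYP83A1 over CYP83B1 the log2 ratio was 1.17, −0.13 and 0.35 in WT and −5.91, −0.81 and −0.68 in phod1, again with no overlap and a mean difference of −2.93 (exact permutation p = 0.1, adjusted 0.2), which was −1.21 without phod1 1.

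The pairs MYB28 over MYB34 and SOT18 over SOT16 did not separate in this way. For MYB28 over MYB34 the log2 ratio was 3.27, 1.89 and 2.21 in WT and −2.91, 2.38 and −1.17 in phod1, with phod1 2 inside the WT range (mean difference −3.02, exact permutation p = 0.3, adjusted 0.4). Leaving out phod1 1 gave −1.85 and leaving out phod1 2 gave −4.50. For SOT18 over SOT16 the ratio was 0.36, 0.38 and 0.28 in WT and 0.40, 0.23 and 0.38 in phod1, overlapping throughout (exact permutation p = 0.9, adjusted 0.9). SOT17 was not set against SOT16, and its log2 fold change was larger than that of SOT16, at 0.69 beside 0.19. Within the sulfotransferases, the log2 ratio of SOT17 over SOT18, described after its values were seen, was −1.07, −1.02 and −0.93 in WT and −0.55, −0.41 and −0.58 in phod1.

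**Figure D3:**
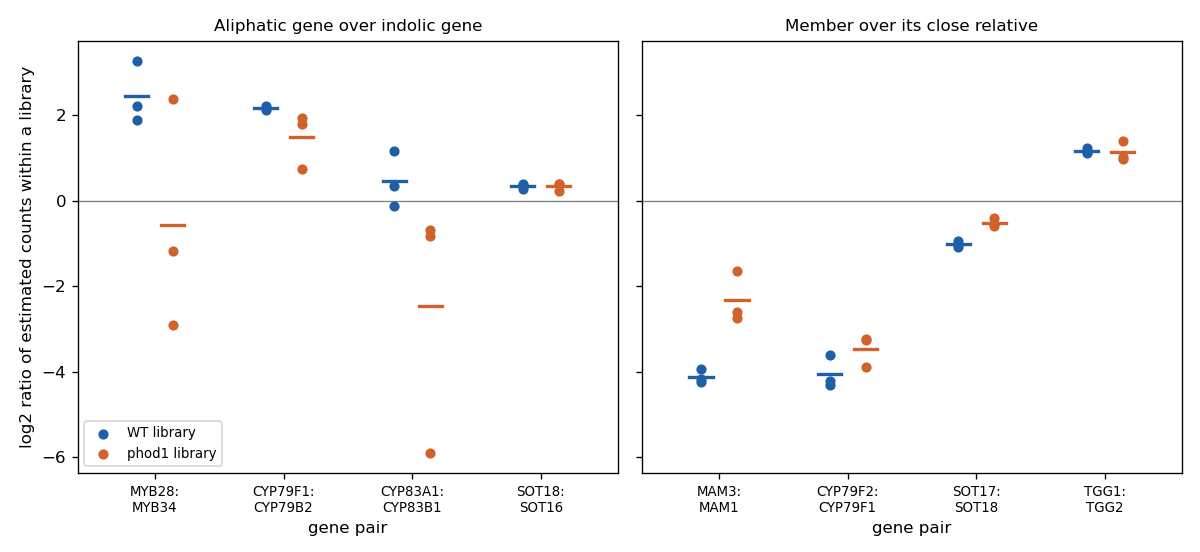
Log2 ratio of estimated counts within each library for 4 aliphatic over indolic pairs (left) and 4 members over a close relative (right), with WT in blue, phod1 in orange and a bar at the mean of 3 libraries. CYP79F1 over CYP79B2 and CYP83A1 over CYP83B1 are lower in every phod1 library with 1 library far below, and MAM3 over MAM1 and SOT17 over SOT18 are higher in every phod1 library.

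A feature of these genes was 1 library standing far from both others of its genotype. Among the 35 members with a mean of at least 5 CPM, 7 (20%) had a library at least 3-fold from both sister libraries, beside 739 of 8374 genes (8.82%). A library at least 8-fold away occurred for 3 members (8.57%), MYB28, MYB29 and CYP83A1, beside 2.85% of genes. The library was phod1 1 for 4 of the 7 (MYB29, CYP83A1, CYP79B3 and FMOGS-OX3), phod1 2 for MYB28, phod1 3 for MYB34 and WT 2 for FMOGS-OX5. Over all genes phod1 1 stood apart for 1.96%, within the range of 1.46% to 2.08% over the 6 libraries. None of the 9 called members had a library 3-fold apart. Of all 2988 called genes, 2969 had none either, so this is not a result about the members. The shares of genes with a library apart were chosen after the values were seen and were not tested.

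**Figure D4:**
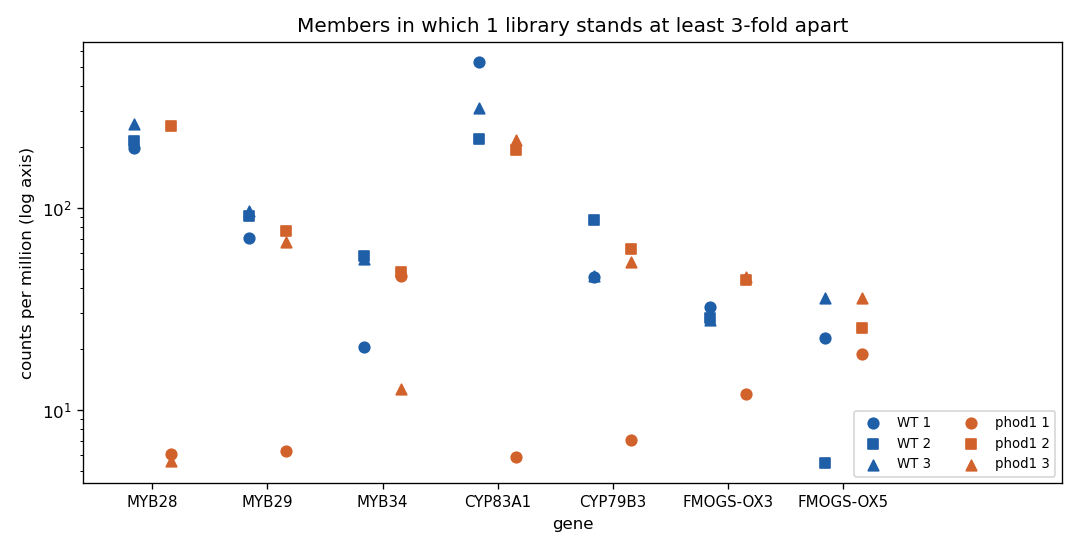
Level in each library of the 7 members in which 1 library stands at least 3-fold from both others of its genotype, in CPM on a log axis, with the genotype as colour and the library number as shape. phod1 1 (orange circle) is the low library of MYB29, CYP83A1, CYP79B3 and FMOGS-OX3, whereas phod1 1 and phod1 3 are both low for MYB28.

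The authors' deposited table of phod1 against WT listed 3902 genes, where the count table holds 21693. Of the 39 members in the count table, 14 were listed, 12 higher and 2 lower. How many of the 3902 genes were higher was not counted here, so this split has no background of its own and is not a result about the members. The DESeq2 fit run here on the same libraries called 1982 genes higher and 1904 lower. All 9 called members were among the 14. Both comparisons rest on the same libraries, so this overlap is no independent support. The other 5 in the authors' deposited table were IPMI2 (log2 fold change 0.29), CYP79F2 (0.71), CYP79B2 (0.90), SOT16 (0.18) and IGMT1 (−0.65), each of which is described above with its own fit. In the DESeq2 Wald test run here these 5 also passed, with log2 fold changes of 0.295, 0.712, 0.9, 0.184 and −0.654 in that order.

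Other genes of glucosinolate biology were read from a list of 46, of which 39 were tested. This list and those below were chosen with earlier results of these data known, so their shares are descriptions only. Of these, 15 rose (38.5%, beside 14.6% of all genes) and 3 fell (7.69%, beside 13%). Of the 15, BZO1 and BGLU30 were under the floor in every WT library and were tested through their phod1 counts alone. The 38.5% includes these 2 genes, whose direction was set by the filter. SDI1, a sulfur-deficiency gene whose product represses aliphatic synthesis through MYB28, rose from 8.51 ± 1.69 to 102 ± 2.57 CPM (SD, n = 3; log2 fold change 3.58, edgeR adjusted p = 0.000216). MBP1, a myrosinase-binding protein, rose from 15.1 ± 1.18 to 56.0 ± 2.32 CPM, and NIT1, a nitrilase, from 739 ± 51.9 to 2064 ± 91 CPM, both at an edgeR adjusted p of 0.000244. The glutathione transferase GSTF10 rose by 1.08 and the S-oxygenase FMOGS-OX4 by 1.72 on the log2 scale, while GSL-OH, which hydroxylates the side chain of butenyl glucosinolate, fell from 823 ± 15.5 to 523 ± 4.65 CPM (edgeR adjusted p = 0.000964).

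A list of 9 genes covered tryptophan synthesis, which feeds CYP79B2 and CYP79B3, and camalexin synthesis, which uses the aldoxime they make. Of these 9 genes, 8 were tested, 5 rose (62.5%, beside 14.6% of all genes) and none fell (beside 13%). Among the 5, CYP71A12, which takes that aldoxime towards other defence compounds, held 0, 0.171 and 0 CPM in WT, under the floor, and 13.5, 14.2 and 12.6 CPM in phod1, and was tested through its phod1 counts alone, so its values are given as a description. The 62.5% includes CYP71A12, whose direction was set by the filter. PAT1 and TSA1 of tryptophan synthesis rose by 0.34 and 0.48 on the log2 scale, with edgeR adjusted p-values of 0.0219 and 0.0246. Of 6 regulators of the stomatal lineage, 1 fell (16.7%, near the 13% of all genes) and none rose (beside 14.6%). Among the 6, FAMA also sets the myrosin cells that hold TGG1 and TGG2. The 1 that fell was the receptor-like protein gene TOO MANY MOUTHS (TMM), from 71.8 ± 5.53 to 45.2 ± 4.73 CPM (log2 fold change −0.67, edgeR adjusted p = 0.00953). FAMA was at 9.66, 23.3 and 8.86 CPM in WT and 34.5, 36.7 and 33.1 CPM in phod1, higher in every phod1 library, and did not pass (log2 fold change 1.32, edgeR adjusted p = 0.059).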

How the data were processed

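Shoot RNA was extracted with a column kit and DNase and made into Illumina libraries, per the labels' protocols. The deposited table holds estimated counts for each gene in each sample, as whole numbers without normalization. CASAVA 1.4, STAR and StringTie, and the build TAIR10, are named in the submitters' processing notes. Not given in the sources used here were the counting command, annotation, strand setting and filters, so overlapping, antisense and near-identical genes (CYP79F1 and CYP79F2, MAM1 and MAM3, CYP79B2 and CYP79B3, the SOT genes, TGG1 and TGG2, the IGMT genes) are uncertain. In the reference, models without an entry in the table overlap IMD1, UGT74C1, SOT18, FMOGS-OX5 and CYP81F4. The value 4 was seen 1703 times against 562 for 3 and 832 for 5, from which 1 fragment was taken as 4 units. The authors' deposited comparison gives log2 fold changes and adjusted p-values, per the file headers, with no tool named.

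Of 21693 genes, 7887 were at 0 everywhere and 10803 passed filterByExpr (minimum count 10, minimum total 15). They were tested with edgeR 4.0.16 in R 4.3.3 (TMM, genotype as the only term, glmQLFit and glmQLFTest, two-sided, Benjamini-Hochberg, threshold 0.05); the plan assumed read counts, and the test was kept for the estimated counts, which were already whole. Errors after ± are SDs, and each SE was derived from the test's F value. At 33183463 to 54720319 units per library, a floor of 3 fragments stood at 0.256 to 0.404 CPM. Ratios within a library had 4 units added to each count, and a library stood apart by its fold after adding 1 CPM. Lengths and neighbours came from the annotation of TAIR10.1, whose coordinates are not printed. All members could be named, with up to 6 called genes of smallest p from the list of other glucosinolate genes and up to 3 from each other list; FAMA, EXPA7 and RSL4 were added after their values were seen. The members and lists were chosen with earlier results of these data known. Alternatives were DESeq2 1.42.0 and its size factors, library totals, other filters, a replicate block, another assignment of 5 core genes, and leaving out each library. The fit was tested on simulated data.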

Additional observations from a re-analysis of the deposited data

How the results depend on the processing

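Of 430 values of single members with an adjusted p under alternatives, 385 kept their direction and side of the threshold, 20 passed only there, 4 (all ESP) no longer passed and 21 turned sign. Of 37 without one, 36 were ratios of medians, of which 2 turned sign (CYP79B3, 0.226, and PEN2, 0.077) and MYB28 moved to −5.12. Scaling by library totals moved the median of all genes from 0.01 to 0.39 (log2) and the share of calls that were higher from 52.9% to 85.2%. On that scale 18 members were higher and 1 lower, beside 3544 and 618 of 10803 genes. The values that turned positive there, all below the shift of the median, were those of MYB34 (0.072), MYB51 (0.13), MAM1 (0.081), IIL1 (0.34), FMOGS-OX1 (0.17), CYP81F2 (0.24), TGG1 (0.28), TGG2 (0.31) and PEN2 (0.28). That scaling called 9 aliphatic and 4 indolic members higher and 2 breakdown members. DESeq2 called 3886 of 13806 genes, 1982 higher and 1904 lower, and 12 members higher and 2 lower. Of the aliphatic members it called 6 higher and 1 lower, and of the indolic members 4 higher and 1 lower. With no filter 2714 genes passed, and with a mean of at least 5 CPM 2591. Replicate numbers did not pair the samples (correlations of −0.01, −0.05 and 0.01), and a replicate block called 1500 genes against 2988 and 0 breakdown members (ESP, adjusted p = 0.0651).

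Leaving out 1 library gave 2128 to 2531 genes, 1 to 2 aliphatic and 0 to 1 indolic members lower, and 0 to 1 breakdown members. It turned the sign of 8 members, whose ranges were −0.659 to 0.084 for MYB34 (positive without phod1 3), −0.594 to 0.067 for MYB51 (positive without WT 1), −0.003 to 0.412 for BCAT4 (negative without WT 3), −0.099 to 0.019 for IIL1 (positive without WT 1), −0.498 to 0.861 for UGT74C1 (negative without WT 1, WT 3 or phod1 2), −0.071 to 0.603 for FMOGS-OX3 (negative without phod1 2 or phod1 3), −0.128 to 0.928 for FMOGS-OX5 (negative without WT 2) and −0.428 to 0.267 for PEN2 (positive without WT 2 or phod1 1). The cause of these changes was not tested. With 3 libraries a genotype and libraries that stand apart, the SE of MYB28, CYP83A1 and MYB29 leaves differences of several-fold undetectable.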
